A study of Mus musculus with 24 samples.

Results

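YAP-TFE3 is a fusion protein found in a subset of epithelioid hemangioendothelioma, a vascular sarcoma, and joins the N terminus of the transcriptional coactivator YAP to the C terminus of the transcription factor TFE3. Transcripts of NIH 3T3 cells with YAP-TFE3 were set against those of NIH 3T3 cells with the empty vector (EV), 3 libraries in each group and 6 of the 24 libraries in the series. The libraries were chosen by their labels alone. NIH 3T3 cells are fibroblasts that were grown from mouse embryos and became immortal in culture, and both groups were collected after 48 h of confluence, a state in which the Hippo pathway is known to hold YAP out of the nucleus. Each group came from pooled stable lines made with the retroviral vector pBabeNeo, so both carry the vector and its selection, and the fusion protein was added to cells that keep their own Yap1 and Tfe3. Per the study's methods the 3 replicates of a group were transduced and selected separately, so p-values measure the spread between such lines of 1 parental cell line. Cells with YAP5SA, an activated full-length YAP, with full-length TFE3 and with the other fusion protein, TAZ-CAMTA1, were collected at the same 48 h of confluence, and are used below only where the YAP-TFE3 values are set beside theirs.

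As background, YAP and its paralog TAZ have no DNA-binding domain of their own and act on genes through the TEAD transcription factors. The LATS kinases of the Hippo pathway phosphorylate YAP and TAZ, which keeps them in the cytoplasm of dense cultures. TFE3 belongs to the MiT/TFE family of basic helix-loop-helix factors, with TFEB and MITF. These factors bind E-box sequences and are known for switching on genes of lysosomes and autophagy, and their entry into the nucleus is controlled by the folliculin and Rag GTPase branch of nutrient sensing.

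The EV libraries held 19981310 to 22419096 counts and the YAP-TFE3 libraries 19777954 to 28170637, and the least deep was the first YAP-TFE3 replicate. Values below are TMM-normalised CPM, counts scaled by library size, given in the order of replicates 1 to 3, and the libraries are written EV1 to EV3 and YT1 to YT3. The numbers are those of the sample titles, and the description field of YT3 repeats the name of YT2, so the numbering of YT2 and YT3 rests on the titles. A gene was called when its Benjamini-Hochberg adjusted p was under 0.05 in edgeR's quasi-likelihood test over the 14361 genes tested. The genes whose parts make the fusion protein were not higher in the cells that carry it: Yap1 measured 193, 169.9 and 189 CPM in EV and 156, 158 and 171 CPM in YAP-TFE3 (-0.19, adjusted p = 0.136). Tfe3 measured 84.6, 93.2 and 89.2 CPM in EV and 75.7, 80.0 and 83.6 CPM in YAP-TFE3 (-0.16, adjusted p = 0.51). The sources used here do not give the species of the cDNA in the construct, so these values do not check the labels. Defining markers of fibroblasts summed to 20410 to 23783 CPM in EV and 26068 to 36540 CPM in YAP-TFE3. They did not move together. Col1a1, Col1a2 and Thy1 were higher in every YAP-TFE3 library, Dcn and Pdgfrb were lower, and Vim, Col3a1, Lum and Pdgfra overlapped. Col1a2 measured 7344 to 8561 CPM in EV and 11636 to 17864 CPM in YAP-TFE3, and Dcn 2181 to 2729 and 1229 to 1996 CPM. Defining markers of endothelial cells summed to 3.01 to 4.91 and 8.41 to 13.4 CPM with Cldn5 at 0. Of these Vwf alone measured 0.398 to 0.668 CPM in EV and 5.18 to 9.85 CPM in YAP-TFE3. Kdr and Cdh5 were also higher, at up to 1.10 CPM, and Tek overlapped (2.20 to 4.29 and 1.71 to 3.11 CPM). Defining markers of epithelial cells summed to 0.310 to 0.573 and 0.892 to 1.15 CPM with Epcam at 0. Those of myeloid cells summed to 3.92 to 5.35 and 118 to 245 CPM with Adgre1 and Tyrobp at 0. In bulk libraries a different number of cells of a type and a different amount of RNA per cell cannot be told apart.

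Against EV, 2203 of the 14361 genes were called in YAP-TFE3 cells (15.3%), of which 1523 were higher (10.6%) and 680 lower (4.74%). The rises were larger than the falls. The median log2 fold change was 0.96 for genes called higher and -0.62 for genes called lower, and 737 rises but 140 falls reached a log2 fold change of 1. A further step to 3 left 188 rises and 3 falls. The libraries of the groups did not overlap for 1491 of the genes called higher and 630 of those called lower, whereas over all genes tested every YAP-TFE3 library was above every EV library for 19.8% and below for 16.8%. YT1 lay farthest from EV for 1325 of the genes called higher (87.0%) and 516 of those called lower (75.9%). Without it 1133 genes were called, 847 higher and 286 lower, without EV3 1449, 365 of them lower, and without EV1 402 were lower, and 806 rises and 246 falls were called whichever single library was left out. The part of YT1 in these counts beyond that was not tested. Below, where leaving out 1 library moved a group's count by over 1.5 times, the range over the 6 fits that each left out a library follows in parentheses with the libraries that moved it, and a gene whose call was lost without a library is given with that library.

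Some values rest on reads that could belong to more than 1 gene. How reads were assigned by strand is not given in the sources used here, and exons of Fras1, Eln, Tgm2, Itga7, Lims2, Lss, Igf2, Igfbp7, Has2, Sp110, Dusp1, Kcnk3 and Plppr3 overlap a gene of the opposite strand, so the partners cannot be told apart. Near-identical copies make single values uncertain for Lyz1 and Lyz2, Dmrtc1c1 and Dmrtc1c2, Prl2c2, the Serpinb genes, the guanylate-binding proteins, the histones and the ribosomal proteins.

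**Figure D1:**
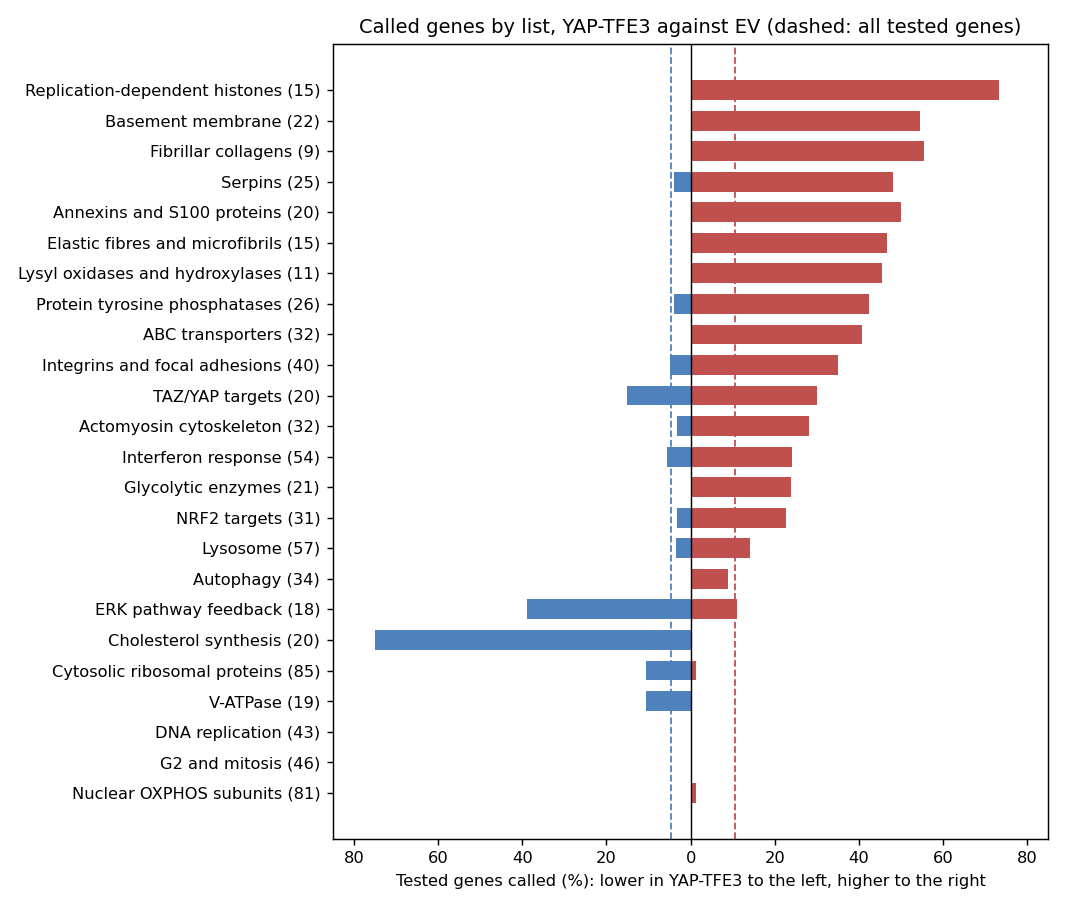
Share of tested genes called higher (right) and called lower (left) in YAP-TFE3 cells against EV, in percent, for 24 gene lists and families; the dashed lines mark all 14361 genes tested, 10.6% higher and 4.74% lower. Cholesterol synthesis enzymes extend farthest to the left, and replication-dependent histones, basement membrane and serpins far to the right.

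The first question was how far known targets of TAZ and YAP moved. Of 20 tested genes in a list of 22 TEAD-dependent targets, 6 rose and 3 fell (3 to 6 higher and 0 to 3 lower, YT1, YT2, EV1 and EV3), with a median log2 fold change of 0.19. The other members, Igfbp3 and Nt5e, were under the count filter. Ankrd1 (ENSMUSG00000024803, chr19:36111961-36120099, minus strand), a nuclear and sarcomeric ankyrin repeat protein, measured 15.7, 31.5 and 18.6 CPM in EV and 204, 113 and 108 CPM in YAP-TFE3 (log2 fold change 2.69 ± 0.33 (SE), adjusted p = 4.36e-06). Ccn1 (ENSMUSG00000028195, chr3:145646976-145649981, minus strand), a secreted matricellular protein and a standard readout of YAP activity, measured 42.9, 63.8 and 61.5 CPM in EV and 204, 206 and 148 CPM in YAP-TFE3 (log2 fold change 1.73 ± 0.37 (SE), adjusted p = 0.00206). For both genes every YAP-TFE3 library lay above every EV library. Its relative Ccn2 measured 14.6, 18.3 and 19.9 CPM in EV and 39.5, 37.7 and 33.1 CPM in YAP-TFE3 and, although the groups did not overlap, missed the threshold (log2 fold change 1.06 ± 0.39 (SE), adjusted p = 0.0728). Lats2, the kinase that phosphorylates YAP and is itself a target, rose (0.66 ± 0.14, adjusted p = 0.00156), as did Crim1 (0.73 ± 0.20, lost without YT1, EV1 or EV3), Amotl2 (0.49 ± 0.16, lost without YT1, EV1 or EV3) and Ptpn14 (0.36 ± 0.10, lost without YT1, EV2 or EV3). Fjx1 fell (log2 fold change -0.995 ± 0.25 (SE), adjusted p = 0.00767, lost without EV3), and so did Tgfb2, a ligand of TGF-beta receptors (161, 93.8 and 152 CPM in EV and 84.1, 67.5 and 86.9 CPM in YAP-TFE3; log2 fold change -0.77 ± 0.20 (SE), adjusted p = 0.00961, lost without YT2, EV1 or EV3). The 11 other members did not pass the test, among them Axl (0.19), Myof (0.33) and Gadd45a (-0.38).

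TEAD factors bind the letters CATTCC, so the promoter windows of target genes are shown here with that core in capitals. Windows run from 250 bases before the RefSeq start of transcription, read on the strand of the gene (GRCm38.p6, the patch release of mm10), and only the part before the start is printed. Both genes were called higher in YAP-TFE3 cells, and the stretches printed hold 1 copy each. Windows without the core are not printed. Before the start, Lama5 and Itga3, both called higher, hold 0 copies, and Axl, which was not called, holds 1.
Ccn1 (chr3:145649986-145650235, minus strand): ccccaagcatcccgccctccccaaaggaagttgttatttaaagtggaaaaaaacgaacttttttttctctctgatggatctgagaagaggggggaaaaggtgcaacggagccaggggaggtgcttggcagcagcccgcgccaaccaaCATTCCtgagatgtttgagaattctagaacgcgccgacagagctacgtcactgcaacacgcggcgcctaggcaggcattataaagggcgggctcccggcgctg
Ptpn14 (chr1:189728018-189728267, plus strand): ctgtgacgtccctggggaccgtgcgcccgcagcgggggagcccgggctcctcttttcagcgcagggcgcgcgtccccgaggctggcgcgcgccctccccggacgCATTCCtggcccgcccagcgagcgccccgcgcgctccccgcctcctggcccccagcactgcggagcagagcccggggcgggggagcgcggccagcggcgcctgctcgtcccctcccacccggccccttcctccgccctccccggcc
A window reaching 50 bases past the start was found for 10202 of the 14361 tested genes. The longer motif ACATTCC, searched on both strands, stood in 2.70% of those windows, in 4.43% of the 1151 windows of genes called higher and in 1.65% of the 486 windows of genes called lower. The core CATTCC, a shorter form of the same motif that was added after seeing the data, stood in 12.2%, 18.9% and 9.88%. It stood in 6 of the 6 windows of TAZ/YAP targets called higher, a list drawn up as TEAD-dependent targets. The longer motif stood in 2 of these 6. Targets that were not called higher were not counted for either motif. The AP-1 motif TGANTCA stood in 5.11% of all windows, 6.86% of those of genes called higher and 3.50% of those of genes called lower. The E-box CACGTG, which MiT/TFE factors bind, had the opposite order, at 10.1%, 8.95% and 15.8%, and so did TCACGTGA, which contains it, at 2.01%, 1.13% and 3.29%. A match of letters is a description of the window and not a binding site.

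Among the Hippo pathway's own components, 10 of 33 rose and 2 fell (4 to 10 higher and 1 to 2 lower, YT1, EV1 and EV3). Of the 15 kinases and adaptors 3 rose, namely Lats2, Wwc2 (0.56 ± 0.11), a scaffold of the KIBRA family, and Taok3 (0.46 ± 0.10), a kinase upstream of the pathway. The atypical cadherin Fat1, an upstream regulator, measured 92.6, 109 and 98.1 CPM in EV and 379, 279 and 207 CPM in YAP-TFE3 (log2 fold change 1.53 ± 0.20 (SE), adjusted p = 9.96e-06). Of the 6 angiomotins and LIM proteins 3 rose and 1 fell (0 to 3 higher and 1 lower, YT1, EV1 and EV2). Amot, which binds YAP and holds it at junctions, measured 276, 222 and 306 CPM in EV and 152, 168 and 180.2 CPM in YAP-TFE3 (log2 fold change -0.68 ± 0.12 (SE), adjusted p = 0.000433), while its relative Amotl1 moved the other way (0.48 ± 0.12, lost without YT1 or EV2). The DNA-binding partners also moved in both directions, Tead1 higher and Tead2 lower. Tead1 measured 171, 161 and 160.5 CPM in EV and 263, 222 and 203 CPM in YAP-TFE3 (0.48, adjusted p = 0.00562, lost without YT1). Tead2 measured 135, 101 and 129 CPM in EV and 66.6, 83.8 and 94.6 CPM in YAP-TFE3 (-0.57, adjusted p = 0.0219, lost without YT1, EV1 or EV3). Vgll3, a TEAD cofactor, rose (1.06 ± 0.27, lost without YT1 or EV1). Wwtr1, which encodes TAZ, measured 129.6, 137 and 136 CPM in EV and 124, 116 and 124 CPM in YAP-TFE3 and did not pass the test (-0.14, adjusted p = 0.329).

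A second question was what happened to the genes that the TFE3 portion of the protein is known for. Of 28 tested MiT/TFE factors, regulators and known targets, 6 rose and 3 fell (2 to 5 higher and 2 to 3 lower, YT1 and EV3). Gpnmb (ENSMUSG00000029816, chr6:49036546-49070929, plus strand), a transmembrane glycoprotein widely used as a readout of MiT/TFE activity, measured 71.2, 51.9 and 67.7 CPM in EV and 9.98, 14.7 and 27.0 CPM in YAP-TFE3 (log2 fold change -1.88 ± 0.26 (SE), adjusted p = 1.73e-05). All 3 YAP-TFE3 libraries were below all 3 EV libraries. In cells with full-length TFE3 the same gene was higher than in EV (log2 fold change 3.20, adjusted p = 1.99e-07), and the direct difference between YAP-TFE3 and TFE3 was -5.08 (adjusted p = 8.67e-11). Gla, the lysosomal alpha-galactosidase, and Tspan10, a tetraspanin, had the same pattern. Gla measured 182, 208 and 201 CPM in EV and 96.6, 99.99 and 137 CPM in YAP-TFE3 (log2 fold change -0.83 ± 0.18 (SE), adjusted p = 0.00247). It stood at 0.86 against EV in TFE3 cells. Tspan10 measured 1.73, 3.29 and 1.15 CPM in EV and 0.0501, 0.167 and 0.467 CPM in YAP-TFE3 (log2 fold change -3.11 ± 0.58 (SE), adjusted p = 0.000949) and stood at 4.53. Rragd, a Rag GTPase of nutrient sensing and a direct MiT/TFE target, was called higher (0.65, adjusted p = 0.0456, lost without YT1, EV1, EV2 or EV3), and Fnip2, the partner of folliculin, was called lower (-0.44, adjusted p = 0.0454, lost without YT1, YT2, YT3, EV1, EV2 or EV3). Mitf (-0.23, adjusted p = 0.523) and Tfeb (0.33, adjusted p = 0.301) did not pass the test.

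Lysosomal genes were called about as often as other genes. Of 57 tested, 8 rose and 2 fell (3 to 9 higher and 2 lower, YT1, EV1 and EV3), a share near the 15.3% of all genes that were called, with a median log2 fold change of 0.02. Those that rose whichever library was left out were Lgmn, Npc1 and Man2b1. Lgmn, a cysteine protease, measured 116, 202 and 128 CPM in EV and 324, 240.2 and 255 CPM in YAP-TFE3 (0.88, adjusted p = 0.00129). Npc1, which exports cholesterol from lysosomes, measured 82.4, 79.8 and 80.4 CPM in EV and 159, 132 and 126 CPM in YAP-TFE3 (0.78, adjusted p = 0.00134). Man2b1 is a lysosomal mannosidase (0.73 ± 0.15). Ctns, the cystine exporter, fell (-0.55 ± 0.13). In TFE3 cells, where 2.36% of all genes were called higher and 1.02% lower against EV, 20 of these 57 genes were higher and none lower. In the direct contrast of YAP-TFE3 with TFE3, where 14.3% of all genes were higher and 8.62% lower, 3 were higher and 16 lower. For the proton pump that acidifies lysosomes, of 19 V-ATPase subunits 0 rose and 2 fell in YAP-TFE3 cells (0 higher and 0 to 3 lower, YT1, YT2, EV1, EV2 and EV3), whereas 6 were higher in TFE3 cells, and 11 were lower in YAP-TFE3 than in TFE3. Of 34 autophagy genes 3 rose and none fell, and all 3 calls held whichever library was left out. That share of 8.82% was below the 10.6% of all genes called higher. Gabarapl2, an ATG8-family protein of autophagosomes, measured 34.5, 40.9 and 31.3 CPM in EV and 106, 71.0 and 65.1 CPM in YAP-TFE3 (1.18, adjusted p = 2.17e-05). The autophagy receptor Optn measured 5.11, 4.49 and 5.18 CPM in EV and 18.6, 12.9 and 10.4 CPM in YAP-TFE3 (1.4997, adjusted p = 1.90e-05). The other was Uvrag, a partner of Beclin (0.76 ± 0.14). The 13 subunits of the ATAC histone acetyltransferase complex held 0 rises and 1 fall, Kat2a (-0.40, adjusted p = 0.0383, lost without YT1, EV1 or EV3).

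Of all lists and families counted, the enzymes of cholesterol synthesis had the largest share of genes called lower. This pathway turns acetyl-CoA into sterols through mevalonate, squalene and lanosterol, and its enzymes are transcribed under SREBP-2. Of 20 tested enzymes 15 were called lower and none higher (0 higher and 5 to 15 lower, YT1, EV2 and EV3), with a median log2 fold change of -0.88 against 4.74% of all genes called lower. In these 15 cases the range of the fitted values ran from -0.65 for Sqle to -1.41 for Mvd. At the mevalonate steps, Mvd (ENSMUSG00000006517, chr8:122433601-122443422, minus strand), the diphosphomevalonate decarboxylase, measured 63.2, 108 and 99.9 CPM in EV and 25.2, 39.8 and 36.98 CPM in YAP-TFE3 (log2 fold change -1.41 ± 0.27 (SE), adjusted p = 0.000782). The farnesyl diphosphate synthase Fdps measured 217, 358 and 290.0 CPM in EV and 89.5, 152 and 158 CPM in YAP-TFE3 (-1.11, adjusted p = 0.0112, lost without YT1 or EV2). Every YAP-TFE3 library was below every EV library for both genes. At the step that closes the sterol rings, Lss, the lanosterol synthase, measured 114, 193 and 183 CPM in EV and 47.9, 83.4 and 74.9 CPM in YAP-TFE3 (log2 fold change -1.25 ± 0.30 (SE), adjusted p = 0.00619, lost without YT1). Further down the pathway, Hsd17b7, a sterol ketoreductase, measured 41.3, 73.4 and 65.4 CPM in EV and 19.8, 28.8 and 27.8 CPM in YAP-TFE3 (log2 fold change -1.23 ± 0.27 (SE), adjusted p = 0.00223). Tm7sf2, a sterol reductase, measured 23.2, 35.4 and 27.9 CPM in EV and 9.53, 14.2 and 14.7 CPM in YAP-TFE3 (log2 fold change -1.16 ± 0.25 (SE), adjusted p = 0.00182). Again no YAP-TFE3 library reached an EV library. Among the enzymes that did not pass the test were Hmgcs1 (-0.90, adjusted p = 0.0841), Idi1 (-0.97, adjusted p = 0.181), Ebp (-0.31, adjusted p = 0.0947) and Dhcr7, the only enzyme with a positive value (0.15, adjusted p = 0.721).

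Without YT1, the lowest library for all 5 enzymes whose CPM values are given above, 5 of the 15 enzymes were called lower, namely Mvd, Hsd17b7, Tm7sf2, Fdft1, the squalene synthase, and Pmvk, the phosphomevalonate kinase. Without EV2 6 were called lower and without EV3 7. With only the 6 libraries in the fit 16 were called lower, against 5.79% of all genes, and with DESeq2 15, against 6.98%. EV1 was the lowest EV library for the same 5 enzymes, at 63.2 CPM for Mvd against 108 and 99.9. Of the 9 genes of sterol uptake and regulation 4 fell and 1 rose (1 higher and 2 to 4 lower, YT1, EV2 and EV3). Insig1, which holds the SREBP precursor in the endoplasmic reticulum and is itself an SREBP target, measured 129.9, 194 and 236 CPM in EV and 67.6, 95.5 and 104 CPM in YAP-TFE3 (log2 fold change -1.07 ± 0.23 (SE), adjusted p = 0.00195). Insig2, which has the same role, measured 63.03, 72.1 and 56.5 CPM in EV and 97.9, 86.4 and 92.5 CPM in YAP-TFE3 (log2 fold change 0.53 ± 0.11 (SE), adjusted p = 0.00146). Mylip, a ubiquitin ligase and a target of the sterol receptor LXR, fell (-0.86 ± 0.21). Among 16 fatty acid synthesis genes 4 fell and 2 rose (1 to 2 higher and 2 to 6 lower, YT1, EV1, EV2 and EV3). Fasn, the fatty acid synthase, measured 276, 375 and 386 CPM in EV and 184, 263 and 235 CPM in YAP-TFE3 (-0.60, adjusted p = 0.0177, lost without YT1, EV2 or EV3), the desaturase Scd2 measured 1716, 2118 and 1932 CPM in EV and 1178, 1349.7 and 1278 CPM in YAP-TFE3 (-0.60, adjusted p = 0.00133), and the malic enzyme Me1 rose (0.62 ± 0.13).

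**Figure D2:**
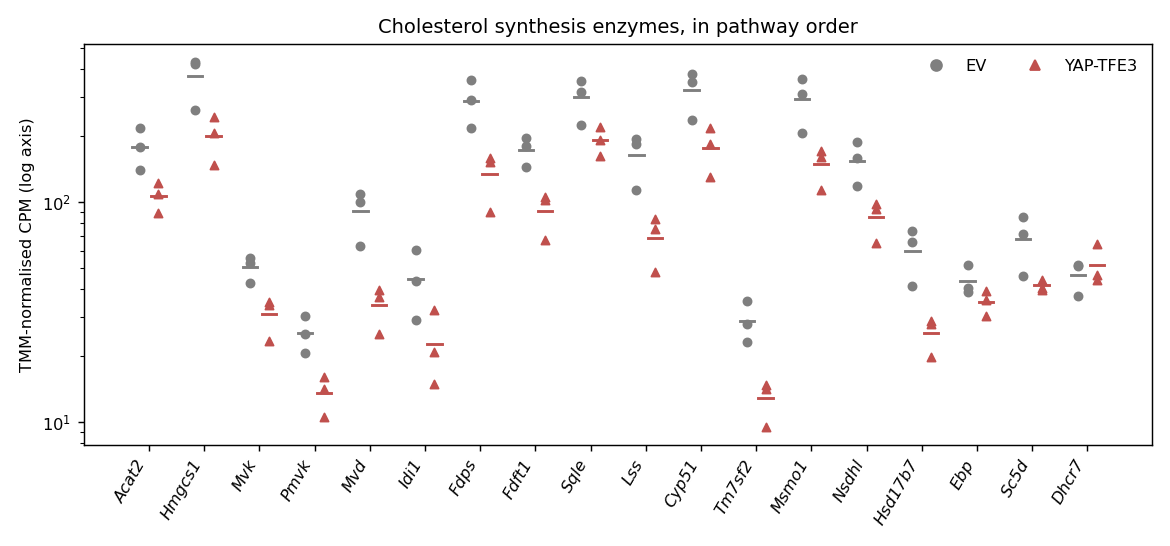
Level of 18 cholesterol synthesis enzymes in pathway order, in CPM on a log axis; circles are the 3 EV libraries, triangles the 3 YAP-TFE3 libraries and bars the group means. For 15 enzymes, 14 of them called lower, the YAP-TFE3 points lie wholly below the EV points, Mvd from 25.2 to 39.8 CPM against 63.2 to 108 CPM, and levels of different genes are not comparable since CPM is not scaled by length.

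Promoters of sterol genes are known to combine SREBP elements with CCAAT boxes, the site of NF-Y. The windows of an enzyme of the lanosterol step and of a later enzyme, both called lower, are printed up to the first annotated start of transcription with CCAAT, or ATTGG where the box lies on the other strand, in capitals.
Lss (chr10:76531355-76531587, plus strand): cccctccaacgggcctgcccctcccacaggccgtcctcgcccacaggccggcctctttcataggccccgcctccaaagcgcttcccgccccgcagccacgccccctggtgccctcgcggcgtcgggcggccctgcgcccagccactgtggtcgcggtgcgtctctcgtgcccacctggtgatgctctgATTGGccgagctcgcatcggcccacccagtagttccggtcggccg
Sc5d (chr9:42264301-42264550, minus strand): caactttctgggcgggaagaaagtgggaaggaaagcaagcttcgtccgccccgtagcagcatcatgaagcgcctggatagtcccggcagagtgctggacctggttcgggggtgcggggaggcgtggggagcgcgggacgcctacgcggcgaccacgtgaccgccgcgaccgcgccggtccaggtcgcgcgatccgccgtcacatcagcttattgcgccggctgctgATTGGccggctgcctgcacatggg
A CCAAT box, a motif added after seeing the data, stood in 39.3% of the windows of all tested genes, 35.1% of those of genes called higher and 41.4% of those of genes called lower. Windows were found for 11 of the 15 enzymes called lower, and 10 of these 11 held it. The SREBP element TCACNCCAC, also added, stood in 1.09% of all windows and in 0 of the 11.

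Genes of the extracellular matrix rose as several groups. Basement membranes are sheets of laminin, type IV collagen, nidogen and perlecan, to which epithelia, muscle and vessels attach. Of 22 tested genes in that list 12 rose and none fell, with a median log2 fold change of 0.59. Lama5 (ENSMUSG00000015647, chr2:180176373-180225859, minus strand), a laminin alpha chain, measured 0.760, 0.668 and 0.664 CPM in EV and 23.1, 13.4 and 6.84 CPM in YAP-TFE3 (log2 fold change 4.35 ± 0.39 (SE), adjusted p = 8.80e-08). The lowest YAP-TFE3 library was above the highest EV library. Lamc3 (2.51 ± 0.55), Lama2 (1.14 ± 0.27, lost without YT1), Lamc1 (0.57 ± 0.13, lost without YT1) and Lamb2 (0.61 ± 0.20, lost without YT1, YT2, EV1, EV2 or EV3) rose as well. Lamb1 (0.08, adjusted p = 0.777) and Lama4 (-0.53, adjusted p = 0.298) did not pass the test. Col4a5, a type IV collagen chain, measured 219, 210.3 and 210.2 CPM in EV and 446, 411 and 324 CPM in YAP-TFE3 (log2 fold change 0.88 ± 0.12 (SE), adjusted p = 2.13e-05). The chains Col4a1 (0.16, adjusted p = 0.671) and Col4a2 (0.29, adjusted p = 0.342) did not pass. Fras1 (ENSMUSG00000034687, chr5:96373955-96784728, plus strand), a protein of the basement membrane under developing skin, had no count in any EV library and 327, 192 and 95 counts in YAP-TFE3, at least 66.7-fold higher against a floor of 3 counts per library (adjusted p = 1.86e-06).

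Of 9 fibrillar collagens 5 rose (1 to 6 higher and 0 lower, YT1 and EV1), and of these only Col5a2 was still called without YT1. Col1a1, the main chain of type I collagen, measured 2384, 2889 and 2725 CPM in EV and 6345, 5132 and 4216 CPM in YAP-TFE3 (log2 fold change 0.97 ± 0.25 (SE), adjusted p = 0.00974, lost without YT1 or EV1). Col5a2, of type V collagen, measured 478, 753 and 517 CPM in EV and 1868, 1163 and 1003 CPM in YAP-TFE3 (log2 fold change 1.21 ± 0.20 (SE), adjusted p = 0.000203). Col3a1 did not pass the test (0.27, adjusted p = 0.639). Of 14 other collagens 4 rose and 2 fell (3 to 4 higher and 1 to 2 lower, EV2). Col7a1, which anchors the epidermis to the dermis, measured 5.57, 4.25 and 5.80 CPM in EV and 14.5, 16.3 and 14.2 CPM in YAP-TFE3 (log2 fold change 1.52 ± 0.21 (SE), adjusted p = 1.60e-05). Col14a1, which binds collagen fibrils, measured 0.211, 0.668 and 0.221 CPM in EV and 2.51, 2.01 and 1.40 CPM in YAP-TFE3 (log2 fold change 2.43 ± 0.43 (SE), adjusted p = 0.000362). Col28a1 (-1.52, adjusted p = 0.00609, lost without EV2) and Col17a1 (-1.14, adjusted p = 0.00899) fell. Elastic fibres, which give tissue its recoil, had 7 of 15 genes higher and none lower (4 to 6 higher and 0 to 1 lower, YT1 and EV2). Eln, the core protein elastin, measured 0.338, 0.0955 and 0.133 CPM in EV and 2.41, 2.01 and 1.78 CPM in YAP-TFE3 (log2 fold change 3.38 ± 0.44 (SE), adjusted p = 1.73e-05), a low level in every library. Ltbp1, which tethers latent TGF-beta to microfibrils, measured 46.8, 36.3 and 42.3 CPM in EV and 83.5, 84.9 and 100.42 CPM in YAP-TFE3 (log2 fold change 1.10 ± 0.18 (SE), adjusted p = 0.000161). Efemp1, a fibulin, measured 762, 909 and 755 CPM in EV and 1768, 1326 and 1448 CPM in YAP-TFE3 (log2 fold change 0.90 ± 0.15 (SE), adjusted p = 0.000218).

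Enzymes that mature and cut the matrix were also among the genes that moved. Of 11 lysyl oxidases, hydroxylases and a transglutaminase 5 rose and none fell. Tgm2, the tissue transglutaminase that crosslinks proteins, measured 12.2, 12.8 and 9.87 CPM in EV and 72.9, 48.4 and 40.3 CPM in YAP-TFE3 (log2 fold change 2.21 ± 0.19 (SE), adjusted p = 3.59e-08). Loxl4, a lysyl oxidase, measured 7.13, 8.12 and 6.68 CPM in EV and 24.3, 21.7 and 20.4 CPM in YAP-TFE3 (log2 fold change 1.597 ± 0.24 (SE), adjusted p = 4.54e-05). P4ha1, a collagen prolyl hydroxylase, measured 176, 255 and 176 CPM in EV and 474, 293 and 317 CPM in YAP-TFE3 (log2 fold change 0.84 ± 0.16 (SE), adjusted p = 0.000916). None of the 3 genes had overlapping groups. Of 28 metalloproteinases 7 rose and 4 fell (2 to 7 higher and 1 to 3 lower, YT1, YT2, EV1, EV2 and EV3). Adamts9 rose (1.99 ± 0.32) and so did Mmp3, stromelysin (1.18, 4.25 and 1.11 CPM in EV and 8.58, 4.82 and 8.92 CPM in YAP-TFE3; 1.78, adjusted p = 0.00812, lost without EV1 or EV3), while Mmp2, a gelatinase, fell (3425, 5124 and 4175 CPM in EV and 2592, 1749 and 2605 CPM in YAP-TFE3; -0.87, adjusted p = 0.0158, lost without YT2 or EV2). Adamts15 (-1.65 ± 0.51, lost without YT2, YT3, EV2 or EV3) and Mmp14 (-0.71 ± 0.16), the membrane protease that activates Mmp2, were also called lower. In the plasminogen system the urokinase receptor Plaur rose (1.11 ± 0.25) and the activator Plat fell (-0.77 ± 0.20, lost without YT1). Proteoglycans and matricellular proteins were mixed, with 10 of 42 higher and 4 lower (5 to 11 higher and 3 to 6 lower, YT1, EV1 and EV3). Thbs1, thrombospondin 1, measured 407, 869 and 606 CPM in EV and 2045, 1635 and 1288 CPM in YAP-TFE3 (log2 fold change 1.40 ± 0.31 (SE), adjusted p = 0.00265). Spp1, osteopontin, measured 1493, 2291 and 1859 CPM in EV and 535, 543 and 793 CPM in YAP-TFE3 (log2 fold change -1.59 ± 0.36 (SE), adjusted p = 0.00344). Has2, the hyaluronan synthase, measured 22.5, 23.1 and 25.4 CPM in EV and 7.02, 6.13 and 8.83 CPM in YAP-TFE3 (log2 fold change -1.69 ± 0.29 (SE), adjusted p = 0.000266).

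**Figure D3:**
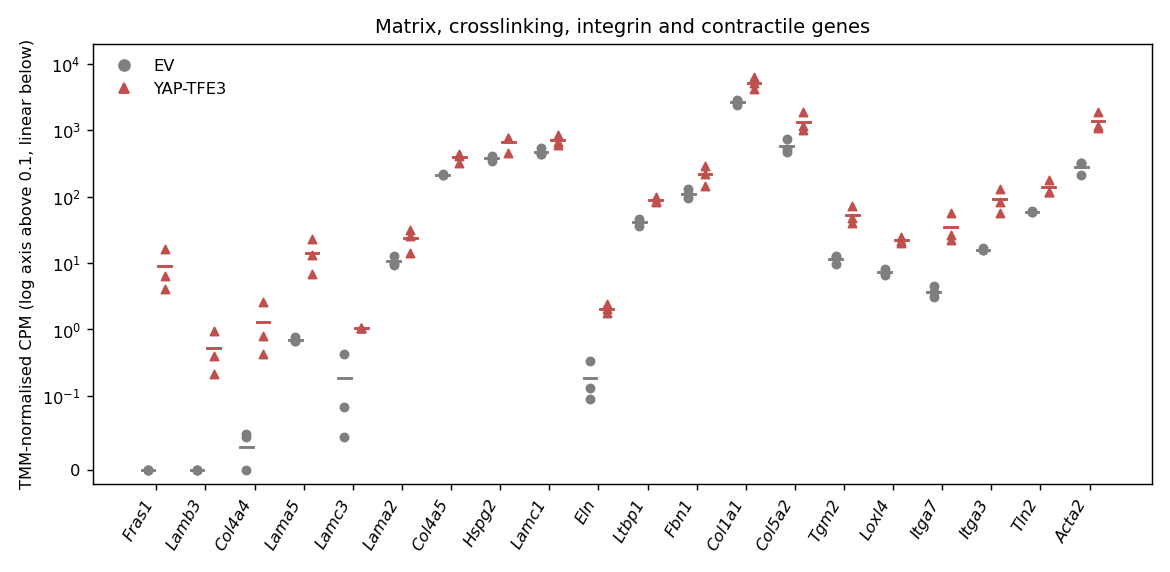
Level of 20 genes of the matrix, of adhesion and of the contractile cytoskeleton, in CPM on an axis that is linear below 0.1 and logarithmic above; circles are EV libraries, triangles YAP-TFE3 libraries and bars group means. Most genes shown are higher in all 3 YAP-TFE3 libraries, Itga3 from 56.0 to 132 CPM against 15.5 to 16.6 CPM, and YT1 is often the highest.

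Integrins are pairs of an alpha and a beta chain that link the matrix to actin, and of 17 tested chains 6 rose and 1 fell (4 to 7 higher and 1 to 2 lower, YT3). Itga3 (ENSMUSG00000001507, chr11:95044474-95076801, minus strand) and Itga7 (ENSMUSG00000025348, chr10:128933818-128958282, plus strand) encode alpha chains that bind laminins. Itga3 measured 15.5, 15.6 and 16.6 CPM in EV and 132, 84.7 and 56.0 CPM in YAP-TFE3 (log2 fold change 2.51 ± 0.24 (SE), adjusted p = 1.70e-07). Itga7 measured 3.04, 4.49 and 3.63 CPM in EV and 57.1, 26.2 and 22.2 CPM in YAP-TFE3 (log2 fold change 3.24 ± 0.30 (SE), adjusted p = 1.58e-07). For each gene the lowest YAP-TFE3 library exceeded the highest EV library by over 3 times. Their partner Itgb1 (0.65 ± 0.11) and the laminin-binding Itga6 (1.01 ± 0.17) rose as well. Itgb8, which with the alpha-v chain activates latent TGF-beta, fell (24.7, 23.01 and 23.8 CPM in EV and 7.07, 10.3 and 11.4 CPM in YAP-TFE3; log2 fold change -1.31 ± 0.24 (SE), adjusted p = 0.000577). Of 23 cytoplasmic adhesion proteins 8 rose and 1 fell (5 to 8 higher and 0 to 2 lower, YT1, YT2, YT3, EV1, EV2 and EV3). Tln2, a talin that activates integrins, measured 61.6, 58.5 and 58.5 CPM in EV and 181, 118 and 118 CPM in YAP-TFE3 (log2 fold change 1.22 ± 0.14 (SE), adjusted p = 2.41e-06). Vcl, vinculin, rose (0.62 ± 0.12) and Lims2, a partner of the integrin-linked kinase, rose from a low level (0.507, 0.191 and 0.487 CPM in EV and 6.87, 2.41 and 2.89 CPM in YAP-TFE3; 3.30, adjusted p = 3.33e-05). Tln1 (0.25, adjusted p = 0.151), Ptk2 (0.21, adjusted p = 0.137) and Pxn (0.11, adjusted p = 0.654) did not pass the test.

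In the actomyosin cytoskeleton 9 of 32 genes rose and 1 fell (6 to 9 higher and 0 to 2 lower, EV2 and EV3). Acta2 (ENSMUSG00000035783, chr19:34241090-34255590, minus strand), the smooth muscle actin of myofibroblasts, measured 321, 212 and 317 CPM in EV and 1888, 1158 and 1091 CPM in YAP-TFE3 (log2 fold change 2.28 ± 0.23 (SE), adjusted p = 3.63e-07), which is the largest rise in that list. Lmod1, a smooth muscle actin nucleator, measured 2.91, 1.77 and 3.45 CPM in EV and 12.7, 7.47 and 7.39 CPM in YAP-TFE3 (log2 fold change 1.75 ± 0.37 (SE), adjusted p = 0.00182). Other contractile genes were not called. Tagln measured 69.4, 35.4 and 66.5 CPM in EV and 47.6, 50.2 and 40.6 CPM in YAP-TFE3 (-0.31, adjusted p = 0.527), and Actg2 (0.21, adjusted p = 0.865) and Mylk (-0.21, adjusted p = 0.584) did not pass the test. Of 18 targets of SRF, the factor that drives contractile genes, 4 rose and 1 fell (3 to 5 higher and 0 to 1 lower, YT1 and EV1). Among 20 cadherins and protocadherins 6 rose and 2 fell (5 to 9 higher and 0 to 1 lower, YT1, YT2, YT3, EV1, EV2 and EV3), among them N-cadherin. Its gene Cdh2 measured 94.9, 74.3 and 97.6 CPM in EV and 193, 141 and 145 CPM in YAP-TFE3 (log2 fold change 0.84 ± 0.15 (SE), adjusted p = 0.000487). Guidance molecules moved in both directions, 8 of 43 higher and 6 lower (5 to 10 higher and 5 to 9 lower, YT1). Sema3c, a secreted semaphorin, measured 5.45, 14.0 and 8.01 CPM in EV and 87.5, 30.2 and 38.4 CPM in YAP-TFE3 (log2 fold change 2.51 ± 0.44 (SE), adjusted p = 0.000293). Plxna4, of its receptor family, rose (2.18 ± 0.39), and Plxnb1 (-1.52 ± 0.30) and Sema7a (-1.82 ± 0.40) fell. All 3 called members of the 15 ephrins and Eph receptors fell (0 to 1 higher and 3 to 5 lower, YT2, YT3, EV1 and EV2), Efnb2 the most (-0.82 ± 0.17).

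Many of the largest rises started from little or no signal in EV. Of the called genes 42 had no count in any EV library and 52 had 1 to 3 counts over the 3 libraries, and 83 of these 94 were called whichever library was left out. Mgam (ENSMUSG00000068587, chr6:40628831-40769123, plus strand), the intestinal maltase-glucoamylase, measured 0.127, 0.716 and 0.177 CPM in EV and 121, 71.7 and 69.8 CPM in YAP-TFE3 (log2 fold change 8.03 ± 0.43 (SE), adjusted p = 2.54e-11). Lyz2 (ENSMUSG00000069516, chr10:117277331-117282321, minus strand), the lysozyme of macrophages, measured 0.169, 0.382 and 0.619 CPM in EV and 239.7, 113 and 128 CPM in YAP-TFE3 (log2 fold change 8.67 ± 0.42 (SE), adjusted p = 4.92e-12). For both genes the lowest YAP-TFE3 library was far above the highest EV library, and YT1 was the highest. The ranking of the largest rises took only genes without overlap of the groups, so that separation adds no support. Cyp11b1, the steroid 11-beta-hydroxylase of the adrenal cortex, had 0 counts in EV and 4189, 2365 and 1380 in YAP-TFE3, at least 864-fold higher (adjusted p = 5.58e-06), a call that DESeq2 did not make, and its exons overlap those of Gml2 on the other strand. Ptprt (ENSMUSG00000053141, chr2:161521990-162661147, minus strand), a receptor tyrosine phosphatase that mediates adhesion between cells, had 0 counts in EV and 710, 566 and 404 in YAP-TFE3, at least 178-fold higher (adjusted p = 4.52e-09). Crct1, a protein of the cornified envelope, had 0 counts in EV and 1166, 603 and 510 in YAP-TFE3, at least 249.2-fold higher (adjusted p = 1.70e-07), and Scel, sciellin, had 0 and 202, 92 and 45, at least 37.6-fold higher (adjusted p = 8.49e-06). Lypd5 also had 0 counts in EV and 320, 197 and 66 in YAP-TFE3. Of 18 listed epithelial genes 15 were under the count filter and 1 of the other 3 rose (0 to 2 higher and 0 lower, YT1, YT2, EV1, EV2 and EV3), and of 7 tested keratins 1 rose (1 to 2 higher and 0 lower, EV1 and EV2). Tph1, the tryptophan hydroxylase of serotonin synthesis outside the brain, had 1 count over the EV libraries, a ratio of 499 (95% exact counting interval 89.1 to 19729). Abcc2, a transporter that exports conjugated bile pigments, had 2 counts, a ratio of 219.5 (95% exact counting interval 60.4 to 1818). The others of the 15 largest rises, Als2cl, Ankrd29, Prr32, Rbpms2 and Sh3tc1, had 1 or 2 EV counts.

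**Figure D4:**
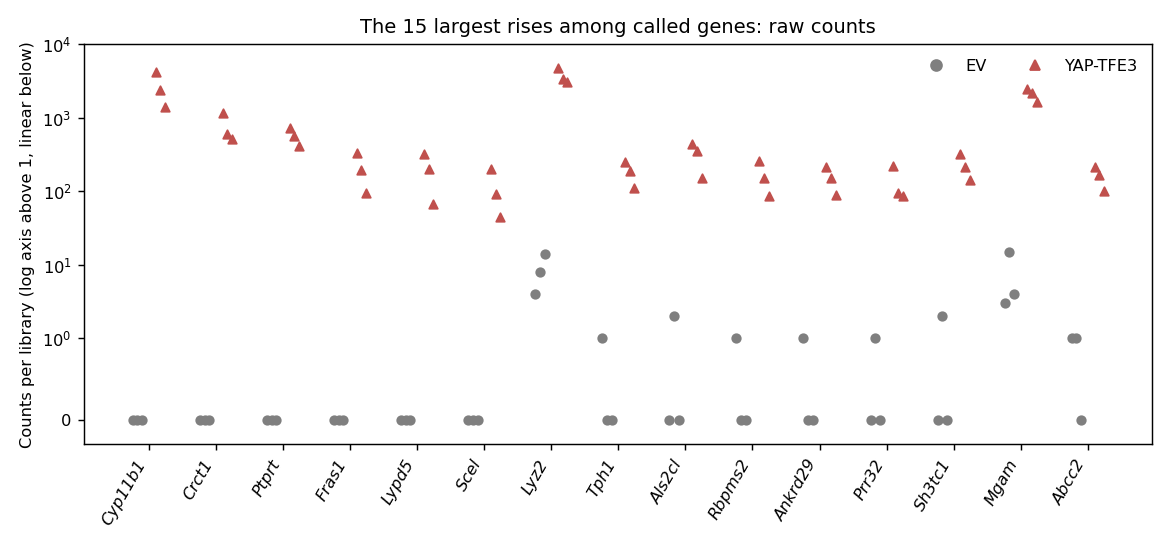
Raw counts in each library for the 15 largest rises among called protein-coding genes, on an axis that is linear below 1 and logarithmic above; circles are EV libraries and triangles YAP-TFE3 libraries. EV points lie at 0 to 2 counts for 13 of the genes, and Lyz2 and Mgam have up to 15 EV counts and over 1000 YAP-TFE3 counts.

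Several families defined by gene symbol alone shared in the rises. Of 25 serpins, inhibitors of serine proteases and their relatives, 12 rose and 1 fell, with a median log2 fold change of 1.37, or 1.003 with genes absent from EV at their bound. Serpinb1a, an intracellular inhibitor of neutrophil proteases, measured 0.296, 0.0477 and 0.177 CPM in EV and 18.8, 8.27 and 10.1 CPM in YAP-TFE3 (log2 fold change 6.07 ± 0.49 (SE), adjusted p = 2.27e-08). Of 32 ABC transporters 13 rose and none fell (7 to 14 higher and 0 lower, YT1 and EV1). Abca4, a transporter of retinoids, measured 0.127, 0.239 and 0.0885 CPM in EV and 9.63, 4.02 and 3.27 CPM in YAP-TFE3 (log2 fold change 5.18 ± 0.49 (SE), adjusted p = 1.70e-07). Abcc3 measured 0.0844, 0.0955 and 0.0885 CPM in EV and 1.504, 0.837 and 0.255 CPM in YAP-TFE3 (log2 fold change 3.17 ± 0.69 (SE), adjusted p = 0.0025). Of 26 protein tyrosine phosphatases 11 rose and 1 fell (8 to 11 higher and 0 to 1 lower, EV3). Ptprj measured 0.253, 0.334 and 0.0885 CPM in EV and 5.87, 4.09 and 2.97 CPM in YAP-TFE3 (log2 fold change 4.23 ± 0.38 (SE), adjusted p = 1.03e-07). Of 20 annexins and S100 proteins, which bind calcium, 10 rose and none fell (5 to 8 higher and 0 to 1 lower, YT1 and EV2). S100a11 measured 226, 216 and 237 CPM in EV and 884, 516 and 594 CPM in YAP-TFE3 (log2 fold change 1.56 ± 0.21 (SE), adjusted p = 1.77e-05). Of 29 ADAM and ADAMTS proteases 10 rose and 1 fell (5 to 10 higher and 0 to 1 lower, YT1, YT2, YT3, EV2 and EV3). Adam22, which has no protease activity, measured 0.253, 0.334 and 0.310 CPM in EV and 11.9, 7.70 and 3.86 CPM in YAP-TFE3 (log2 fold change 4.68 ± 0.49 (SE), adjusted p = 6.07e-07). Tetraspanins were 8 higher and 2 lower of 22 (5 to 10 higher and 2 lower, YT1), cytochromes P450 6 and 0 of 24, and solute carriers 36 and 12 of 201 (24 to 36 higher and 4 to 13 lower, YT1, YT2, EV1 and EV3). Slc2a3, the glucose transporter GLUT3, measured 0.0844, 0.191 and 0.0885 CPM in EV and 6.42, 2.55 and 0.934 CPM in YAP-TFE3 (log2 fold change 4.71 ± 0.76 (SE), adjusted p = 0.000123). Zinc finger proteins, the largest named family, had 9 higher and 12 lower of 347 (2 to 11 higher and 2 to 19 lower, YT1, YT2, EV1, EV2 and EV3), below the 15.3% of all genes.

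A list of 18 genes that ERK signalling induces held phosphatases and Sprouty proteins, which dampen it, and also ETS transcription factors. Of these 18, 7 fell and 2 rose (2 higher and 2 to 6 lower, YT1, EV2 and EV3). Etv5, an ETS factor induced by FGF signalling, measured 27.9, 36.6 and 35.0 CPM in EV and 9.93, 15.9 and 13.4 CPM in YAP-TFE3 (log2 fold change -1.34 ± 0.25 (SE), adjusted p = 0.000604), and its relatives Etv4 (-1.22 ± 0.34, lost without YT1, EV2 or EV3) and Etv1 (-1.04 ± 0.30, lost without YT1 or EV3) were called lower too. Spry4 (-0.94 ± 0.28, lost without YT1 or EV2) and Dusp6 (-0.76 ± 0.26, lost without YT1, YT3, EV1, EV2 or EV3) fell as well. Dusp1, a phosphatase of stress-activated kinases, rose (15.8, 37.6 and 17.5 CPM in EV and 67.8, 49.9 and 52.3 CPM in YAP-TFE3; 1.26, adjusted p = 0.00259). Fgfr1, the main FGF receptor of fibroblasts, measured 1087, 1032 and 1201 CPM in EV and 620.2, 690.2 and 814 CPM in YAP-TFE3 (log2 fold change -0.64 ± 0.15 (SE), adjusted p = 0.00367). Of 11 EGF-like ligands and ERBB receptors 2 rose and none fell, both of them ligands. The share called, 18.2%, was near the 15.3% of all genes tested. Ereg measured 2.24, 5.83 and 3.50 CPM in EV and 24.7, 11.8 and 11.4 CPM in YAP-TFE3 (log2 fold change 2.05 ± 0.37 (SE), adjusted p = 0.000463). Hbegf measured 2.24, 4.44 and 2.88 CPM in EV and 7.72, 6.66 and 6.07 CPM in YAP-TFE3 (log2 fold change 1.10 ± 0.26 (SE), adjusted p = 0.00489). Erbb3, a receptor of that family, did not pass (0.92, adjusted p = 0.468). In the insulin-like growth factor system Igf2 measured 100.31, 284 and 169 CPM in EV and 76.7, 46.6 and 38.9 CPM in YAP-TFE3 (log2 fold change -1.77 ± 0.49 (SE), adjusted p = 0.0156, lost without YT2, YT3 or EV2). Among the proteins that bind these ligands outside the cell, 4 of 7 rose and 1 fell. Igfbp6 measured 91.9, 116 and 88.6 CPM in EV and 461, 276 and 322 CPM in YAP-TFE3 (log2 fold change 1.83 ± 0.19 (SE), adjusted p = 6.20e-07). Igfbp7 measured 28.3, 30.9 and 27.3 CPM in EV and 134, 96.6 and 93.5 CPM in YAP-TFE3 (log2 fold change 1.91 ± 0.25 (SE), adjusted p = 1.21e-05).

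Of 43 TGF-beta and BMP genes 10 rose and 5 fell (6 to 11 higher and 2 to 6 lower, YT1, YT2, EV1 and EV3). The ligands Tgfb3, Tgfb2 and Gdf11 (-0.56, adjusted p = 0.00726, lost without YT1) fell, and Fst and Fstl3, antagonists of activin, rose. Tgfb3 measured 198, 159 and 221 CPM in EV and 82.9, 93.8 and 112 CPM in YAP-TFE3 (-1.002, adjusted p = 0.00044). Fst measured 1.01, 0.382 and 0.354 CPM in EV and 1.55, 3.52 and 2.93 CPM in YAP-TFE3 (2.18, adjusted p = 0.000857). Fstl3 measured 5.02, 7.64 and 5.93 CPM in EV and 27.1, 14.9 and 17.3 CPM in YAP-TFE3 (1.67, adjusted p = 1.20e-05). Of 29 Wnt genes 6 rose and 4 fell. The receptors Fzd4 (11.0, 14.6 and 10.8 CPM in EV and 40.02, 23.6 and 28.9 CPM in YAP-TFE3; 1.35, adjusted p = 0.00119) and Fzd7 (0.81 ± 0.12) and the ligand Wnt9a (1.26 ± 0.20) rose. Axin2, a feedback target that reports beta-catenin activity, measured 1.52, 2.29 and 1.99 CPM in EV and 0.802, 0.770 and 0.849 CPM in YAP-TFE3 (log2 fold change -1.25 ± 0.29 (SE), adjusted p = 0.00453). Lef1, its transcription factor, fell (-1.28 ± 0.25). The antagonist Dkk2 rose (1.604, 2.44 and 1.19 CPM in EV and 6.37, 14.8 and 8.79 CPM in YAP-TFE3; 2.53, adjusted p = 0.00428). In the Notch pathway 3 of 11 rose and none fell (1 to 3 higher and 0 to 1 lower, YT1 and EV2). The target Hes1 measured 0.380, 1.53 and 1.06 CPM in EV and 8.78, 4.69 and 5.52 CPM in YAP-TFE3 (log2 fold change 2.68 ± 0.53 (SE), adjusted p = 0.00103). Without YT1 it was the only call of the 3 that remained.

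Inflammatory genes moved in both directions. Among 28 chemokines and cytokines 7 rose and 5 fell (5 to 10 higher and 2 to 5 lower, YT1). Il33, an alarmin kept in the nucleus, measured 30.02, 20.8 and 32.0 CPM in EV and 6.57, 2.08 and 10.1 CPM in YAP-TFE3 (log2 fold change -2.16 ± 0.46 (SE), adjusted p = 0.00179). Cxcl12, the ligand of CXCR4, measured 775, 1125 and 906 CPM in EV and 345, 280.1 and 372 CPM in YAP-TFE3 (log2 fold change -1.49 ± 0.29 (SE), adjusted p = 0.000748). Every YAP-TFE3 library was below every EV library for both. Il6 (0.0844, 0.525 and 0.0442 CPM in EV and 3.91, 2.48 and 1.32 CPM in YAP-TFE3; 3.57, adjusted p = 0.000154) and Cxcl1, a chemokine for neutrophils (0.507, 0.430 and 0.0442 CPM in EV and 3.46, 3.21 and 3.01 CPM in YAP-TFE3; 3.28, adjusted p = 2.66e-05), rose from low levels. Tnfsf9, a ligand of the TNF family, measured 8.15, 7.64 and 7.61 CPM in EV and 40.3, 18.5 and 20.9 CPM in YAP-TFE3 (1.76, adjusted p = 5.41e-05). Of 54 interferon-response genes 13 rose and 3 fell (8 to 12 higher and 1 to 5 lower, YT1, EV1, EV2 and EV3). By role, 3 of 23 antiviral effectors and sensors rose and 1 fell (3 higher and 0 to 3 lower, YT1, YT3, EV1, EV2 and EV3), 3 of 14 signalling proteins and transcription factors rose, and 7 of 17 guanylate-binding and IFI200 proteins rose and 2 fell (3 to 6 higher and 1 to 2 lower, YT1, EV1 and EV3). The share called of the antiviral effectors and sensors, 17.4%, was near the 15.3% of all genes tested. Sp100 and Sp110, proteins of nuclear bodies, and Bst2, tetherin, were among the rises. Sp100 measured 3.38, 2.91 and 2.83 CPM in EV and 33.0, 13.5 and 12.2 CPM in YAP-TFE3 (log2 fold change 2.68 ± 0.30 (SE), adjusted p = 1.26e-06). Sp110 measured 0.296, 0.382 and 0.487 CPM in EV and 9.28, 3.65 and 2.63 CPM in YAP-TFE3 (log2 fold change 3.71 ± 0.49 (SE), adjusted p = 1.20e-05). Bst2 measured 11.2, 12.5 and 10.9 CPM in EV and 65.9, 39.95 and 40.3 CPM in YAP-TFE3 (log2 fold change 2.08 ± 0.24 (SE), adjusted p = 1.89e-06). Isg15 (0.25, adjusted p = 0.645) and Irf7 (0.37, adjusted p = 0.583) did not pass the test. Stat2 rose (1.12 ± 0.16). Of 28 genes of antigen presentation and complement 9 rose and 1 fell. Nlrc5, the transactivator of MHC class I genes, measured 0.296, 0.286 and 0.531 CPM in EV and 3.71, 2.48 and 2.42 CPM in YAP-TFE3 (log2 fold change 2.92 ± 0.38 (SE), adjusted p = 1.18e-05). The complement inhibitors Cd59a (2.06 ± 0.22) and Cd55 (1.71 ± 0.43, lost without YT1, EV1 or EV3) rose. Masp1, a protease of the lectin pathway, measured 100.01, 68.3 and 102 CPM in EV and 35.3, 28.6 and 46.8 CPM in YAP-TFE3 (log2 fold change -1.29 ± 0.22 (SE), adjusted p = 0.000264).

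Markers of other cell types were checked beside these values. Of 12 tested myeloid genes 4 rose, Lyz2, Lyz1, Ms4a4d (0.929, 3.72 and 0.841 CPM in EV and 29.0, 13.2 and 11.7 CPM in YAP-TFE3; 3.31, adjusted p = 6.69e-06) and Cd14 (1.19 ± 0.25), and 1 fell, Gpnmb (4 higher and 1 to 2 lower, YT3). The whole list of 31 summed to 115 to 130 CPM in EV and 195 to 328 CPM in YAP-TFE3, of which Lyz2 alone made up 113 to 239.7 CPM in YAP-TFE3, and Adgre1, Tyrobp, Ms4a7 and Cybb were at 0 in all 6 libraries. Of 12 tested endothelial genes 4 rose and none fell (4 higher and 0 to 1 lower, YT3). Vwf, the von Willebrand factor, measured 0.633, 0.668 and 0.398 CPM in EV and 8.63, 9.85 and 5.18 CPM in YAP-TFE3 (log2 fold change 3.79 ± 0.51 (SE), adjusted p = 1.53e-05). Kdr, a VEGF receptor, measured 0, 0.0477 and 0.177 CPM in EV and 1.10, 0.636 and 0.892 CPM in YAP-TFE3 (3.44, adjusted p = 0.00021). The whole list of 27 summed to 316 to 358 CPM in EV and 246 to 314 CPM in YAP-TFE3 with Cldn5, Sox7, Sox17 and Mmrn1 at 0. Of 8 tested muscle genes 3 rose, Acta2, Lmod1 and Des (0.169, 0.0955 and 0 CPM in EV and 2.56, 1.71 and 1.15 CPM in YAP-TFE3, log2 fold change 4.25, adjusted p = 2.47e-05). The list summed to 217 to 326 CPM and 1103 to 1907 CPM with Myod1, Myog and Myocd at 0, and Acta2 alone made up nearly all of both sums. Of 15 fibroblast genes 5 rose and 1 fell (1 to 5 higher and 0 to 2 lower, YT1, YT2, EV1, EV2 and EV3). Thy1 measured 33.3, 40.7 and 40.04 CPM in EV and 145, 83.8 and 91.8 CPM in YAP-TFE3 (log2 fold change 1.49 ± 0.19 (SE), adjusted p = 9.80e-06). The part of other cell types in any of these rises was not tested.

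Of 37 genes of glycolysis and the hypoxia response 9 rose and 1 fell (5 to 9 higher and 0 to 2 lower, YT1, YT2, EV1, EV2 and EV3), among them the phosphofructokinase Pfkp and Pfkfb3, which makes its activator. Pfkp measured 15.5, 18.3 and 14.2 CPM in EV and 67.0, 47.2 and 41.7 CPM in YAP-TFE3 (log2 fold change 1.70 ± 0.19 (SE), adjusted p = 1.63e-06). Pfkfb3 measured 9.46, 9.07 and 11.5 CPM in EV and 51.0, 28.1 and 29.6 CPM in YAP-TFE3 (log2 fold change 1.85 ± 0.32 (SE), adjusted p = 0.000223). Of 31 NRF2 targets 7 rose and 1 fell (3 to 7 higher and 0 to 1 lower, YT1, YT2, EV1 and EV3). Of 31 genes of amino acid synthesis and the ATF4 response 6 rose and none fell (2 to 9 higher and 0 to 1 lower, YT1 and EV1). The share called was 19.4%, beside 15.3% of all genes tested. Chac1, which degrades glutathione, measured 9.37, 12.4 and 13.2 CPM in EV and 47.2, 32.8 and 31.9 CPM in YAP-TFE3 (log2 fold change 1.68 ± 0.21 (SE), adjusted p = 6.16e-06). Among 15 replication-dependent histones 11 rose and none fell (6 to 10 higher and 0 lower, YT1, EV1 and EV3), with a median log2 fold change of 2.41. Hist1h1c measured 9.50, 13.6 and 10.6 CPM in EV and 67.8, 38.8 and 29.98 CPM in YAP-TFE3 (log2 fold change 2.02 ± 0.33 (SE), adjusted p = 0.000147). Hist1h2ac measured 0.127, 0.0955 and 0.0885 CPM in EV and 2.46, 1.24 and 1.57 CPM in YAP-TFE3 (log2 fold change 3.99 ± 0.63 (SE), adjusted p = 0.000106). Transcripts of these genes typically lack the poly(A) tail by which the libraries were selected, and the form of the transcripts counted here was not tested. Of 43 DNA replication genes 0 were called by edgeR, with 3 at an unadjusted p under 0.05 and 0 by DESeq2, with only the 6 libraries in the fit 2 were higher and 1 lower, and 2 were higher without EV2 and 2 with no filter on low counts. Of 46 genes of G2 and mitosis 0 were called by edgeR, with 1 at an unadjusted p under 0.05 and 0 by DESeq2, but 2 were higher without EV2 and 3 with no filter on low counts. Of the 46 fitted values 43 were positive (median 0.35). Mki67 measured 61.9, 147 and 66.4 CPM in EV and 112, 149 and 89.0 CPM in YAP-TFE3 (0.35, adjusted p = 0.704), with EV2 above YT1 and YT3.

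For cytosolic ribosomal proteins 82 of 85 fitted values were negative and small. Of the 85, 9 were called lower and 1 higher, Rpl3l, a form known from muscle (1 higher and 1 to 19 lower, YT1, YT2, YT3, EV1 and EV3). The median log2 fold change was -0.40, and for 64 every YAP-TFE3 library was below every EV library, set against 16.8% of all genes. DESeq2 called 22 lower, the fit of the 6 libraries alone 20, the fit with no filter on low counts 24 and DESeq2 on the 6 libraries, which was added after seeing the data, 64. Rpl22l1, a paralog of a ribosomal protein, measured 176, 172 and 173 CPM in EV and 87.4, 96.4 and 119.7 CPM in YAP-TFE3 (log2 fold change -0.78 ± 0.17 (SE), adjusted p = 0.00199). Rpl36 measured 322, 232 and 276 CPM in EV and 130.2, 184 and 209.7 CPM in YAP-TFE3 (-0.66, adjusted p = 0.0326, lost without YT1, YT2, EV1 or EV3). Mitochondrial genes were called less. Of 81 nuclear subunits of oxidative phosphorylation 1 rose and none fell (0 to 1 higher and 0 lower, YT1, EV1 and EV3), and of 13 mitochondrially encoded mRNAs 0 were called by edgeR, with 1 at an unadjusted p under 0.05 and 1 lower by DESeq2. Of 17 aminoacyl-tRNA synthetases 0 were called, with 0 at an unadjusted p under 0.05 and 0 by DESeq2.

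Among the 15 largest falls of called protein-coding genes, Aspg, an asparaginase, measured 7.85, 4.73 and 10.8 CPM in EV and 0.602, 0.737 and 0.510 CPM in YAP-TFE3 (log2 fold change -3.63 ± 0.41 (SE), adjusted p = 1.51e-06), the largest of them. Prl2c2, the growth factor proliferin, measured 857, 455 and 984 CPM in EV and 83.6, 141 and 315 CPM in YAP-TFE3 (log2 fold change -2.09 ± 0.41 (SE), adjusted p = 0.00105). Dpt, the matrix protein dermatopontin, measured 89.9, 339 and 161 CPM in EV and 67.0, 22.6 and 44.5 CPM in YAP-TFE3 (log2 fold change -2.14 ± 0.47 (SE), adjusted p = 0.00265). In each of these the EV libraries themselves spread over 2 times or more. Megf10, a receptor for the uptake of dying cells, measured 37.5, 25.7 and 43.8 CPM in EV and 8.78, 5.86 and 12.5 CPM in YAP-TFE3 (log2 fold change -1.98 ± 0.32 (SE), adjusted p = 0.000148). Tcim measured 8.15, 6.54 and 6.33 CPM in EV and 1.30, 1.51 and 1.95 CPM in YAP-TFE3 (log2 fold change -2.13 ± 0.35 (SE), adjusted p = 0.000168). Serpina3n, a secreted serpin, measured 64.8, 37.7 and 58.0 CPM in EV and 10.7, 12.99 and 22.1 CPM in YAP-TFE3 (-1.81, adjusted p = 0.000157). The potassium channel Kcnk3 (-1.99, adjusted p = 0.00134) and Plppr3 (-1.74, adjusted p = 0.000181) fell too. Dmrtc1c1 (-1.78 ± 0.32) and Dmrtc1c2 (-2.09 ± 0.36) completed the list with Il33, Gpnmb, Has2, Igf2 and Sema7a. All calls in this list held whichever library was left out, except that of Igf2.

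The last question was where the fusion protein differs from the full-length proteins it comes from and from TAZ-CAMTA1. All 4 were compared with the same EV libraries, so their values are set side by side and the difference was tested in direct contrasts. Against EV 71.2% of genes were called in YAP5SA cells (36.3% higher, 34.9% lower). The shares were 3.38% in TFE3 cells and 21.5% in TAZ-CAMTA1 cells (12.5% higher, 8.98% lower). Between YAP-TFE3 and YAP5SA 70.9% were called, 5230 higher in YAP-TFE3 (36.4%) and 4954 lower (34.5%). Between YAP-TFE3 and TFE3 it was 22.9% (2050 higher, 1238 lower), and between the fusion proteins 11.6% (907 higher or 6.32%, 764 lower or 5.32%). Mgam stood at a log2 fold change of 8.03 with YAP-TFE3, 1.96 in YAP5SA, 2.46 in TFE3 and 1.93 in TAZ-CAMTA1. YAP-TFE3 exceeded each of the others in the direct contrast (adjusted p = 1.24e-11, 4.19e-10 and 7.93e-10). Lyz2 was 8.67 in YAP-TFE3 and 5.78 in TAZ-CAMTA1, and did not pass the test in YAP5SA (0.32) or TFE3 (-0.20). For this gene too YAP-TFE3 was higher than each of the others, by 2.89 over TAZ-CAMTA1 (adjusted p = 6.17e-07).

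Acta2 was 2.28 in YAP-TFE3, -0.77 in YAP5SA, 0.47 in TFE3 and 0.99 in TAZ-CAMTA1, with a direct difference of 3.06 from YAP5SA (adjusted p = 3.39e-10). Eln (3.38 against -5.19 in YAP5SA), Igfbp7 (1.91 against -0.88) and Sp100 (2.68 against -1.12) likewise rose with YAP-TFE3 and fell with YAP5SA. Ccn1 and Itga3 had the other order. Ccn1 was 1.73 in YAP-TFE3 and 5.25 in YAP5SA, a direct difference of -3.52 (adjusted p = 6.64e-08), and Itga3 was 2.51 and 4.30, a direct difference of -1.79 (adjusted p = 3.94e-07). Ankrd1, at 2.69, 3.03 and 2.08 in the 3 groups, did not differ in the direct contrasts beyond the threshold (adjusted p = 0.321 and 0.206). Of the 20 TAZ/YAP targets tested, YAP5SA cells had 11 higher and 5 lower against EV, TFE3 cells 0 and 0 and TAZ-CAMTA1 cells 10 and 0, beside the 6 and 3 of YAP-TFE3.

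For the cholesterol enzymes the counts of called genes against EV were 0 higher and 15 lower of 20 in YAP-TFE3, 3 and 14 in YAP5SA, 0 and 4 in TFE3 and 0 and 8 in TAZ-CAMTA1. The median log2 fold changes were closer, at -0.88, -0.90, -0.84 and -0.54 in the same order. In the direct contrasts 4 enzymes were higher and 6 lower in YAP-TFE3 than in YAP5SA. Against TFE3 1 was higher and 1 lower, and against TAZ-CAMTA1 1 was higher and 0 lower. Mvd fell in YAP-TFE3 (-1.41) and TAZ-CAMTA1 (-1.17) and rose in YAP5SA (0.60), and did not pass in TFE3 (-0.83). Hsd17b7 fell in YAP-TFE3 (-1.23), YAP5SA (-1.94) and TAZ-CAMTA1 (-0.97). Basement membrane genes were 12 higher and 0 lower in YAP-TFE3, 11 and 7 in YAP5SA, 0 and 0 in TFE3 and 11 and 0 in TAZ-CAMTA1, and elastic fibre genes 7 and 0, 4 and 7, 0 and 1, and 8 and 0.

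**Figure D5:**
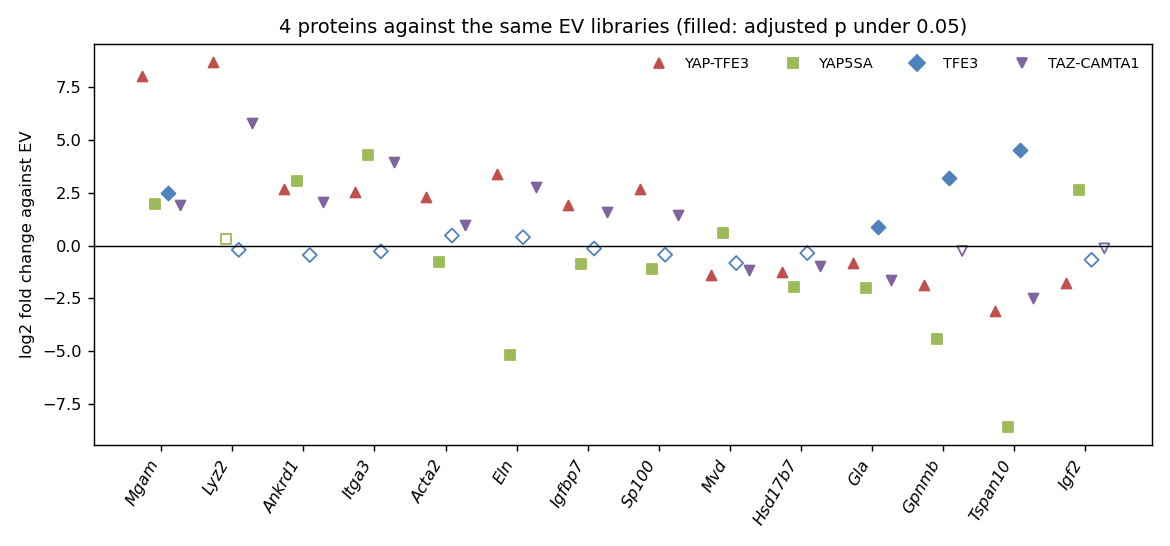
Log2 fold change against EV of 14 genes in cells with YAP-TFE3, YAP5SA, TFE3 and TAZ-CAMTA1, with a filled marker where the adjusted p is under 0.05; the 4 proteins share the same 3 EV libraries and no error bars are drawn. Acta2, Eln, Igfbp7 and Sp100 lie above 0 for YAP-TFE3 and below 0 for YAP5SA, and Gpnmb, Gla and Tspan10 lie below 0 for YAP-TFE3 and above 0 for TFE3.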

How the data were processed

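RNA from 6 NIH 3T3 libraries (3 EV, 3 YAP-TFE3) was compared. Per the labels and the study's methods, the authors sequenced stranded poly(A)-selected libraries as paired ends on a HiSeq, made reads with bcl2fastq, aligned them to mm10 with Hisat2 within bcbio-nextgen and deposited raw counts per Ensembl gene for each sample. The methods also name Salmon and tximport for gene-level counts. Which program made the deposited whole numbers, and its use of strand, are not given in the sources used here.

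Of 39017 gene identifiers 37693 were matched to GENCODE annotation. The 14361 genes that averaged 5 counts or more in the 24 libraries were fitted in 1 model of all 24 with TMM scaling and the quasi-likelihood test of edgeR 4.0.16 (R 4.3.3), after a test on simulated data, with Benjamini-Hochberg adjustment and a threshold of 0.05. Fold changes are log2 with approximate standard errors. CPM values were computed from the counts. For genes without an EV count a floor of 3 counts per library was used, and for 1 to 3 EV counts an exact 95% interval of the ratio. These cover counting error only. The libraries held 19777954 to 28170637 counts. DESeq2 1.42.0, other filters, scalings and subsets of libraries were tried.

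Genes are named by a rule: up to 4 called genes per list and role by size, up to 3 per family, the 15 largest rises and falls, Yap1, Tfe3 and genes the study measured by PCR. Further list members were named after their values were seen, and a few genes are not reported here. The group of libraries, the lists and the rule were chosen with earlier results of these data known. Promoter windows are from RefSeq.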

Additional observations from a re-analysis of the deposited data

Results flagged for a closer look

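Of the genes named by the rule, 37 were called higher against EV with YAP-TFE3 and lower with YAP5SA, and 4 the other way round. Over all genes tested the numbers were 268 and 113. All of these also differed between the 2 by the direct contrast in edgeR (adjusted p under 0.05). Opposite calls against the same EV libraries make that outcome almost certain, so it adds no support. Of the named genes, the 18 whose log2 fold change against EV was at least 1 in size with both proteins are given here. The values below are log2 differences, YAP-TFE3 over YAP5SA. Many of the lists used for naming hold matrix and adhesion genes, and the 268 genes over all tested were not sorted by function. The matrix and adhesion genes among those higher with YAP-TFE3 were Eln (8.57), Col14a1 (3.92), the small leucine-rich proteoglycans Ogn (5.77) and Prelp (3.15), the heparan sulfate proteoglycan Gpc6 (3.67), Ccn4 (3.73), the protease Adamts9 (3.38) and the integrin chain Itga10 (2.88). Igfbp5, a binding protein of insulin-like growth factors, differed by 9.76. The receptors and signalling proteins were Gpr35 (8.21), Arhgap20 (5.32), Plxna4 (5.02), Fzd4 (3.58) and Klf2 (3.98), and the remaining genes were Hsd11b1, which activates glucocorticoids (4.91), Sp100 (3.80) and Lmod1 (3.32). Of the 4 genes lower with YAP-TFE3, Igf2 (-4.39) reached that size and Klf16, Mvd and Tead2 did not. The call of Igf2 against EV was lost without YT2, YT3 or EV2. The calls against EV of Ccn4, Igfbp5 and Klf2 were lost without YT1 or EV1, that of Prelp without YT1, EV1 or EV3, and those of Ogn and Itga10 without YT1, YT2, EV1 or EV3.

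By the same tests against TFE3, 42 of all genes tested were lower and 21 higher with YAP-TFE3. Of the named genes 12 were lower and 2, Igfbp6 and Klf4, higher. Those that reached a log2 fold change of 1 in size with both proteins were 6 of the 12, namely Tspan10 (-7.64), Gpnmb (-5.08), Dmrtc1c2 (-3.69), Dmrtc1c1 (-3.44), the potassium channel Kcnk3 (-3.38) and Rab27a (-3.04), a GTPase that carries melanosomes and secretory granules to the cell surface. Tspan10, Gpnmb and Rab27a are known targets of MITF or its relatives in pigment cells. The melanocyte list of 14 summed to 14.3 to 15.7 CPM in EV and 7.33 to 9.60 CPM in YAP-TFE3, with Dct, Tyr, Ednrb and Rab38 at 0 in all 6 libraries. All these contrasts share the YAP-TFE3 libraries, and the directions against EV share the EV libraries.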

How the results depend on the processing

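Left out in turn, single libraries gave 1133 (without YT1) to 2266 called genes against EV, 9592 to 9775 against YAP5SA, 2199 to 2975 against TFE3 and 835 to 1549 against TAZ-CAMTA1, where TAZ-CAMTA1 replicate 2, TAZ-CAMTA1 replicate 3 (899) and YT1 (1000) moved the count most. With a log2 fold change of at least 1 required, 877, 5606, 1179 and 599 genes remained. When a fit held no other group than those set against each other, 4952 genes differed from TFE3 and 2572 from TAZ-CAMTA1, and the cause was not tested. Against EV, DESeq2 called 2590 genes, DESeq2 size factors 2266, no filter 2426, at least 10 counts in every library 1769 and the fit of 2 groups 2306. Rises made up 69.1% of calls, 61.3% with DESeq2 and 64.9% with its size factors. Erbb3, which is not called, turned from 0.92 to -0.00699 without YT1 and stood at 3.06 without EV1.

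With the replicate number as a block 2170, 10110, 3204 and 1620 genes were called. Libraries of the same number did not deviate together more than others (r = -0.15, 0.01 and 0.13 across genes, and -0.19 to 0.16 for different numbers). With 3 libraries a group, and with the numbers of YT2 and YT3 resting on titles, these values cannot decide whether the numbers pair the samples. The block in the fit of 2 groups, added after seeing the data, gave 1989, and DESeq2 on 2 groups, also added, 2850. Of 293 named genes 289 kept direction and side of the threshold with DESeq2, and 205 without YT1. Other scalings moved the median of all genes by under 0.02 (log2). With 3 libraries a group and YT1 apart from the others, calls of small changes are the least certain, and genes with few counts in EV have the widest intervals.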

Other observations

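Of 18 glutathione S-transferases, which join glutathione to toxic compounds, 5 rose and 1 fell (4 to 6 higher and 0 to 1 lower, YT1, YT2, EV1 and EV3), with Gsta3 at 0, 0.239 and 0.0442 CPM in EV and 2.76, 0.636 and 0.764 CPM in YAP-TFE3 (log2 fold change 3.82 ± 0.69 (SE), adjusted p = 0.00041) and Gstt1 at 2.74, 2.05 and 2.43 CPM in EV and 11.1, 5.09 and 7.30 CPM in YAP-TFE3 (log2 fold change 1.69 ± 0.35 (SE), adjusted p = 0.0015). Aldh3a1, an aldehyde dehydrogenase of cornea and an NRF2 target, measured 1.73, 0.525 and 1.55 CPM in EV and 8.68, 2.38 and 5.82 CPM in YAP-TFE3 (log2 fold change 2.11 ± 0.40 (SE), adjusted p = 0.000748). Hsd11b1, which regenerates active glucocorticoid, measured 0.127, 1.43 and 0.221 CPM in EV and 7.42, 2.55 and 1.95 CPM in YAP-TFE3 (log2 fold change 2.75 ± 0.59 (SE), adjusted p = 0.00201). Dgat2, which makes triglycerides, was the 1 called gene of 13 adipocyte genes (1 higher and 0 to 2 lower, EV2) (1.14, 0.477 and 1.11 CPM in EV and 4.51, 2.75 and 2.04 CPM in YAP-TFE3; log2 fold change 1.74 ± 0.29 (SE), adjusted p = 0.000196), and the 24 genes of that list summed to 2061 to 2256 CPM in EV and 1285 to 1472 CPM in YAP-TFE3.

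Regulators moved in both directions. Of 19 dual-specificity phosphatases 6 rose and 2 fell (6 higher and 0 to 2 lower, YT1, EV1 and EV3). Of 12 KLF factors 2 rose and 1 fell (1 to 2 higher and 1 lower, YT1 and EV1), with Klf4 at 14.2, 18.9 and 16.1 CPM in EV and 67.1, 49.0 and 53.1 CPM in YAP-TFE3 (log2 fold change 1.78 ± 0.17 (SE), adjusted p = 1.70e-07). Of 9 AP-1 genes Maff rose (1.42 ± 0.21) and Jun fell (-0.69 ± 0.23, lost without YT1, YT2, EV1 or EV3). Of 10 regulators of epithelial-mesenchymal transition Cdh2 and Prrx1 (0.44 ± 0.13, lost without YT1, YT2, EV2 or EV3) rose and Snai2 fell (-0.56 ± 0.16, lost without YT1, YT2, EV1 or EV3). Among receptor tyrosine kinases, Ddr1, which binds collagen, measured 118, 80.4 and 116 CPM in EV and 207, 171 and 167 CPM in YAP-TFE3 (log2 fold change 0.79 ± 0.14 (SE), adjusted p = 0.000334), and Mertk, which serves the uptake of dying cells, measured 36.0, 29.0 and 36.9 CPM in EV and 21.01, 19.2 and 19.9 CPM in YAP-TFE3 (log2 fold change -0.76 ± 0.20 (SE), adjusted p = 0.00885).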
